A study of Mus musculus with 26 samples.

Results

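The comparison of mouse germinal vesicle (GV) oocytes with and without the low-complexity domain (LCD) of Tet3 was described gene by gene and pathway by pathway. It used 13 of the 26 samples of the series: 6 libraries labelled WT, with genotype Tet3 LCDf/f and no Cre, and 7 labelled KO, with genotype Tet3 LCDf/f; Zp3-Cre (LCD KO below). All 13 were chosen by their labels, and all 13 carried the floxed LCD allele. The Zp3-Cre transgene, whose Zp3 promoter is active in growing oocytes, is in the genotype of every LCD KO library and of no WT library, so Cre and the deleted allele cannot be told apart in this comparison. A second pair of groups, 2 libraries of Dnmt3af/f; Zp3-Cre (Dnmt3a KO) and 2 of Dnmt3af/f, Tet3 LCDf/f; Zp3-Cre (DKO), also differed in the LCD allele, but with Cre on both sides and with Dnmt3a deleted on both sides. It shared no library with the first and is given beside it. Each library held polyadenylated RNA of 10 pooled oocytes, and the labels call the pools biological replicates. By the labels, batch 1 held 3 pools of each genotype (WT 1, 2 and 3 with LCD KO 1, 2 and 3), batch 2 held WT 4 beside LCD KO 4 and 5, and batch 3 held WT 5 and 6 beside LCD KO 6 and 7 and all Dnmt3a KO and DKO libraries. The labels do not name a strain, an age or how many females gave each pool.

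The fully grown GV oocyte is transcriptionally quiet. It stores messenger RNA made during growth, and that store serves the meiotic divisions and the first steps of the embryo. TET dioxygenases oxidize 5-methylcytosine, the product of DNA methyltransferases such as Dnmt3a, which sets the methylation pattern of the growing oocyte. The series title names the LCD of Tet3 as a protector of oocyte DNA methylation against oxidation.

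The targeted gene was measured first. Levels are in CPM, each library's counts scaled to a common library size with TMM factors. Tet3 lay at 44.1 to 201 CPM (median 59.5) in LCD KO against 158 to 429 CPM (median 229) in WT. The 5 LCD KO libraries of batches 1 and 3 were below every WT library, whereas LCD KO 4 and 5, at 164.8 and 200.6 CPM, overlapped the WT range and were below the single WT library of their batch, at 429.2 CPM. The fitted log2 fold change of LCD KO against WT, here and below from edgeR's quasi-likelihood test with a batch term and with its standard error, was -1.78 ± 0.21, adjusted p = 6.32e-06 (Benjamini-Hochberg, over all 11794 genes tested, as for every adjusted p of a gene below). A count per gene does not separate loss of the transcript from loss of the reads of the deleted part. Klf10, a transcription factor first known as an early-response gene of TGF-beta, lay at 55.8 to 102 CPM (median 76.3) in LCD KO against 5.23 to 9.38 CPM (median 7.04) in WT (3.48 ± 0.14, adjusted p = 3.51e-16). Tmem47, a junction protein of the claudin superfamily, lay at 0.784 to 4.45 CPM (median 1.14) in LCD KO against 15 to 40.8 CPM (median 23.7) in WT (-3.66 ± 0.23, adjusted p = 1.58e-11). For both genes the groups did not overlap.

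Other rows of the table bore on the labels. A row for a Cre sequence held 0 counts in all 6 WT libraries and 44 to 82 counts in the LCD KO libraries of batches 1 and 3, but 0 in LCD KO 4 and 5. In those 2 libraries Klf10 was at 63.81 and 55.84 CPM, which is on the LCD KO side. Metallothionein 1 (Mt1), a metal-binding protein gene of which parts are often used in transgene constructs, lay at 174 to 421 CPM (median 253) in LCD KO against 0.316 to 1.8 CPM (median 0.995) in WT (7.93 ± 0.24, adjusted p = 2.8e-19), and its neighbour Mt2 had 0 to 6 counts in every library of the fit. Mt1 was at 184 to 283 CPM in Dnmt3a KO and 193 to 276 CPM in DKO (DKO against Dnmt3a KO 0.01 ± 0.26, adjusted p = 0.993), so that every library of these 3 groups with Zp3-Cre was above every WT library.

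**Figure D1:**
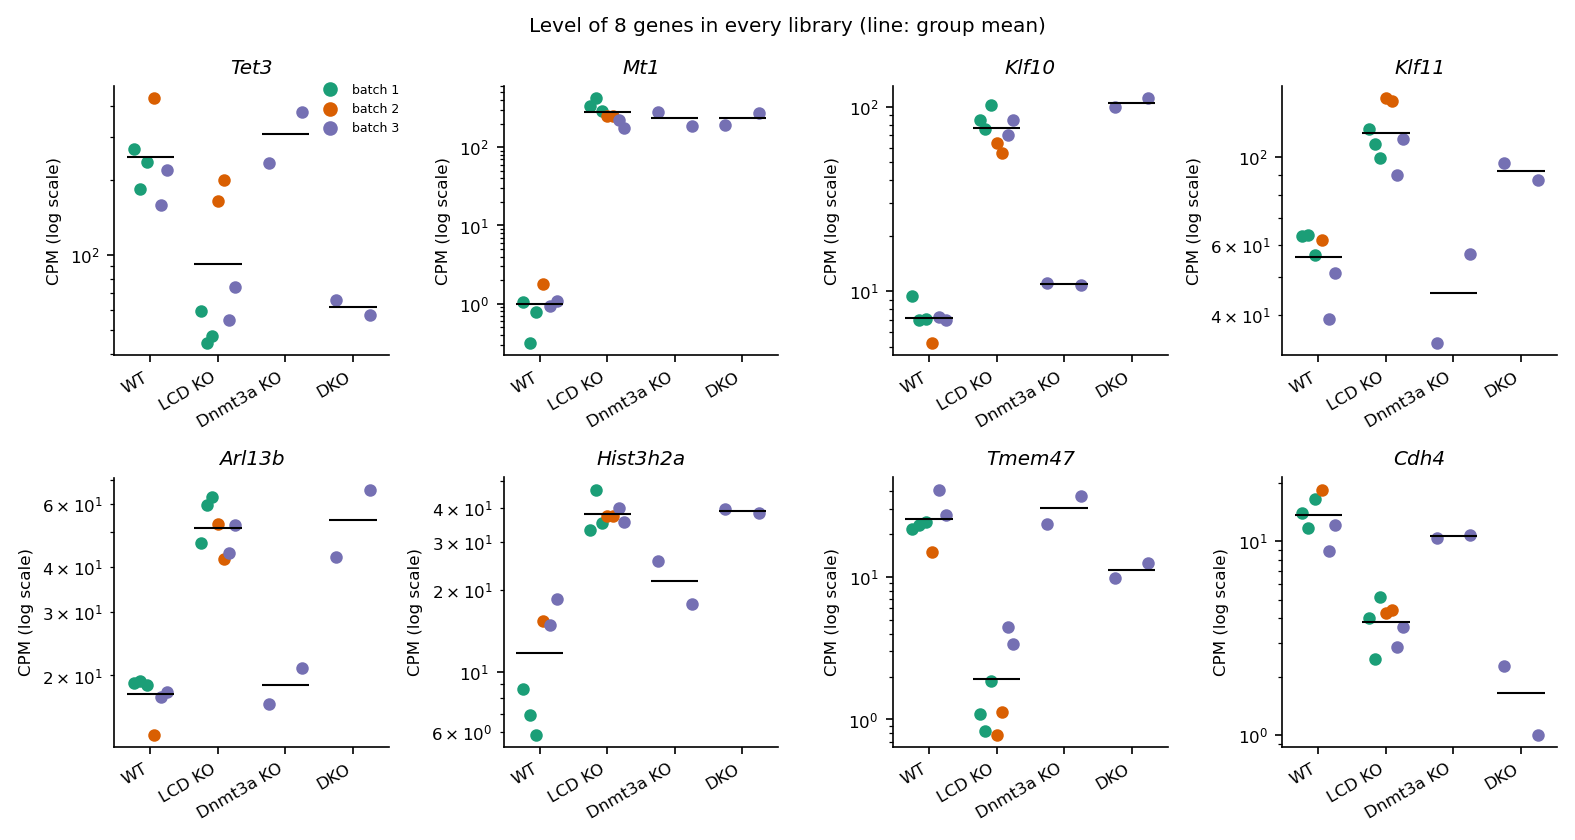
CPM on a log axis (y) of 8 genes in the libraries of WT, LCD KO, Dnmt3a KO and DKO (x). Each point is 1 library, coloured by batch, and the line is the group mean. Mt1 is high in all 3 groups with Zp3-Cre, while Klf10, Klf11 and Arl13b are high and Tmem47 and Cdh4 low in the 2 groups without the LCD; Tet3 of LCD KO 4 and 5 sits at 164.8 and 200.6 CPM.

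Total counts were 2811815 to 7833087 in the 13 libraries, with 13628 to 15510 genes detected. Batch 2 had the highest totals and 2.45% to 3.11% of its counts on the ribosomal RNA precursor Rn45s, against at most 0.714% elsewhere. The 12 oocyte markers summed to 23890 to 74450 CPM (median 30370) in LCD KO and 26820 to 76640 CPM (median 54800) in WT. Of these markers 0 were called higher and 4 lower (Zp1, Zp2, Oosp1 and Figla), where 9.44% of all tested genes were called lower. The part of this difference in the results below was not tested. Markers of other cells were low. The 16 granulosa or cumulus markers, 7 of them tested, summed to 92.2 to 365 CPM in LCD KO against 81.4 to 133 CPM in WT. Hsd3b1 was called higher, and Ptx3 was at 0 in both groups. The 11 theca or stroma markers summed to 3.65 to 7.94 CPM against 1.04 to 3.97 CPM, and Dcn, the only one tested, was called higher. The 13 blood, immune and endothelial markers, 4 of them tested, summed to 107 to 245 CPM against 69.1 to 160 CPM. C1qb was called higher, and the 4 globin genes, Ptprc and Cdh5 were at 0 in both groups. Over all tested genes 8.89% were called higher, so 1 call among so few tested markers says little about a list. All 3 sums of non-oocyte markers had the higher median in LCD KO, and their part in the results below was not tested. In RNA of pooled cells, fewer cells of a type and less RNA per cell cannot be told apart.

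At an adjusted p below 0.05, 2162 of 11794 genes (18.3%) were called, 1049 higher (8.89%) and 1113 lower (9.44%) in LCD KO. Most of the changes were small: the median log2 fold change was 0.70 among genes called higher and -0.68 among genes called lower, and 300 and 274 of them changed at least 2-fold. The difference had the same sign in all 3 batches for 92.9% of the genes called higher and 90.5% of those called lower, against 42.8% of all tested genes. The 6 WT and 7 LCD KO libraries did not overlap for 157 genes called higher and 95 called lower, against 2.21% of all tested genes. The genes were called from these same libraries, so agreement between batches and separation of the groups are partly built in. Calls among the most abundant transcripts were mostly lower: of 144 genes that averaged 1000 CPM or more, 27 were called lower and 3 higher, whereas between 10 and 100 CPM the calls were balanced, 583 higher and 575 lower of 5475. The calls leaned on batch 1, the only batch with 3 libraries of each group. Without it, a setting added after seeing the data, 363 genes were called, 340 of them among the 2162, although 2150 of 2152 main calls kept their sign. The main calls also used the libraries left in, so this agreement of sign is partly built in. Batch 2 alone, with 1 WT library, called 12 genes and batch 3 alone 88. A fit with no batch term called 544 genes, 57.0% of them higher, against 48.5%.

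Direction was related to transcript length. The median length of the transcripts annotated to a gene was 1651 bases for genes called higher, 2561 for genes called lower and 2100 for genes not called. When genes were cut into 5 equal classes by length, 10.8% of the shortest class were called higher and 6.52% lower, and 4.86% and 13.1% of the longest class. The relation was clearest in batch 1 (Spearman correlation -0.23 between length and difference across 11734 genes, which are not independent replicates), and it was -0.08 in batch 3, 0.05 in batch 2 and -0.05 in DKO against Dnmt3a KO. A fit with a length offset in each library, also added after seeing the data, called 2260 genes and shared 1964 with the 2162. Because of these values each gene list below was also counted with the length offset and without batch 1. Where neither count is mentioned, the length offset moved the number called in either direction by at most 2 genes or left it within 1.5 times. Without batch 1 no list had more than 6 calls in a direction, other than RIKEN and predicted genes with 10 higher and 15 lower.

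**Figure D2:**
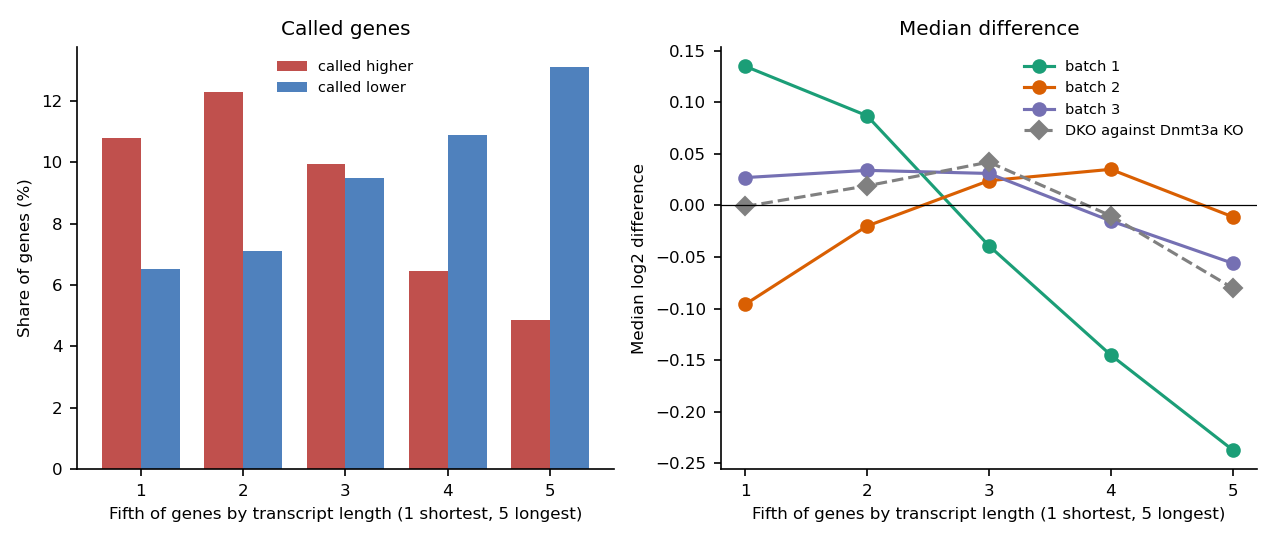
Left, share of genes called higher or lower in LCD KO (y, %) in 5 classes of transcript length (x, 1 the shortest, 5 the longest). Right, median log2 difference of the same classes in each batch and in DKO against Dnmt3a KO; batch 1 runs from 0.14 to -0.24, and the other lines lie between -0.10 and 0.04.

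Lists of genes by function were read against these shares, 8.89% higher and 9.44% lower, and against the median of all tested genes, -0.02. They were chosen with earlier results of these data known, and no list was tested as a set. Among the lists with more higher than lower calls were histones, kinetochore, DNA replication, fatty acid oxidation, cholesterol synthesis, autophagy and ribosome biogenesis genes. Among those with more lower calls were cadherins, developmental transcription factors, Polycomb group, WNT, O-glycosylation, and TGF-beta and BMP genes. Lists close to the shares over all genes are given further on.

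**Figure D3:**
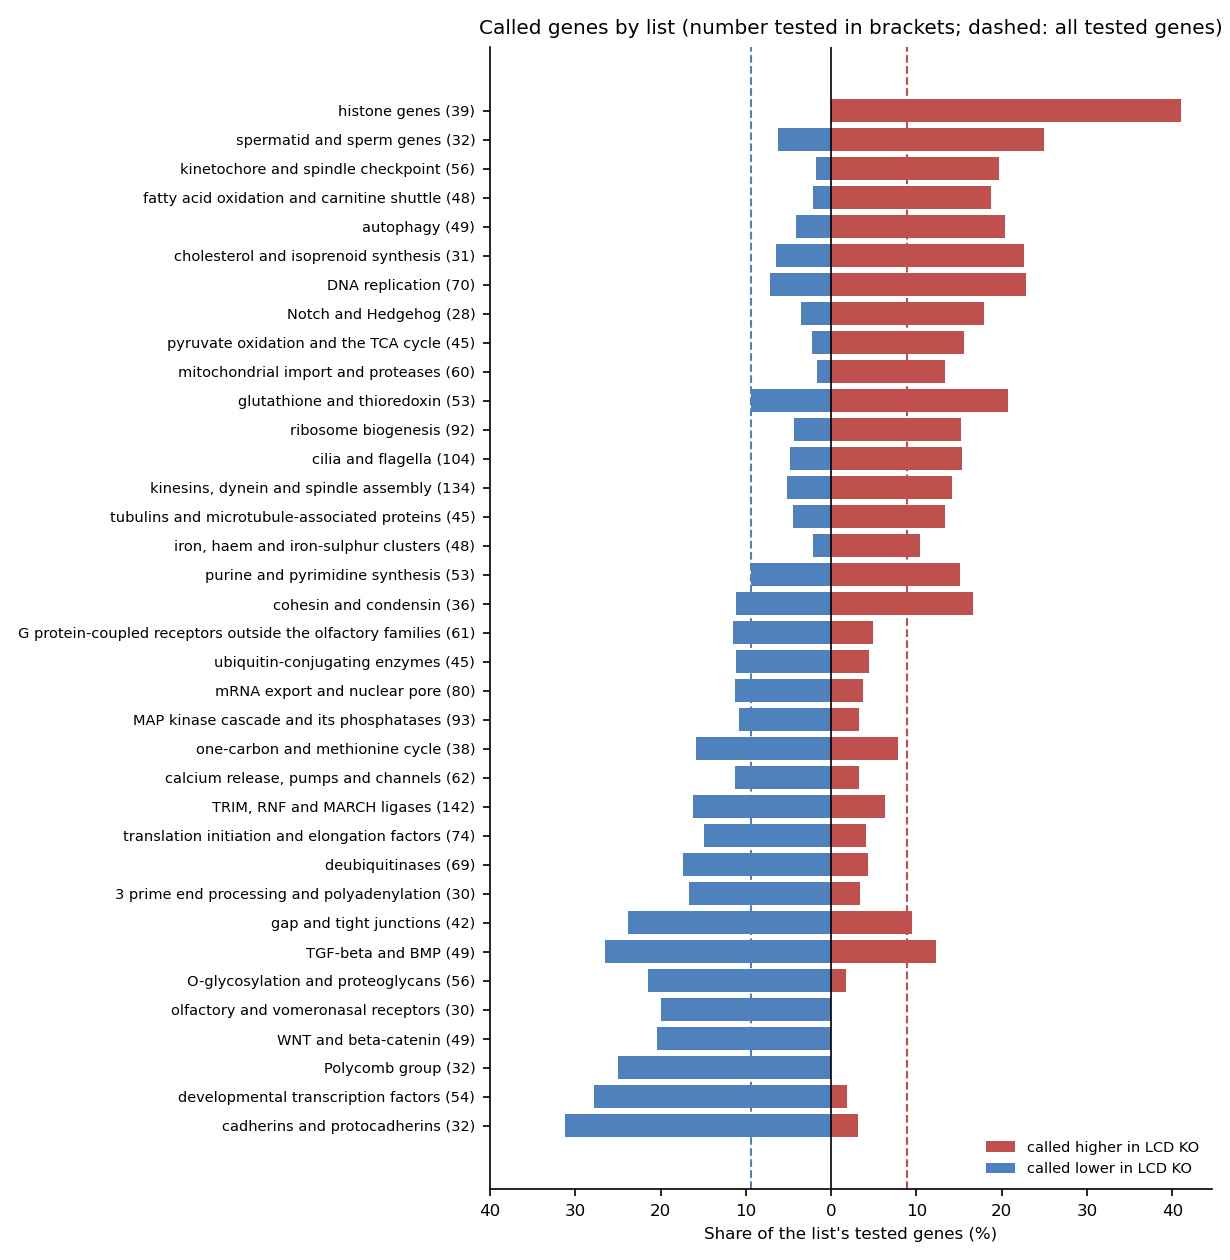
Share of each list's tested genes called higher (right) or lower (left) in LCD KO (x, %), for the 36 lists at the 2 ends of the difference between both shares among the reported lists with at least 28 tested genes and 6 calls; the number tested is in brackets. Dashed lines mark the shares over all tested genes, 8.89% and 9.44%. Histone genes stand at 41.0% higher and 0% lower, cadherins and protocadherins at 31.2% lower.

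**Figure D4:**
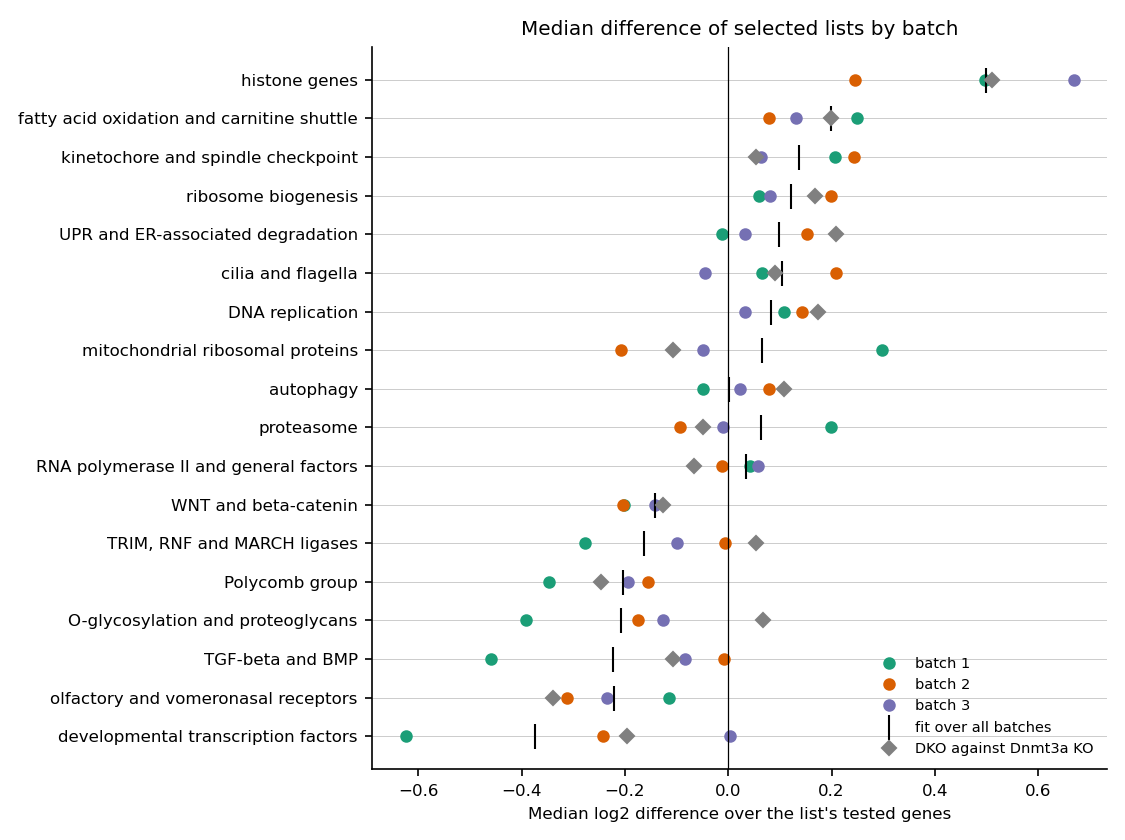
Median log2 difference over the tested genes of selected lists (x) in batches 1, 2 and 3, in the fit over all batches and in DKO against Dnmt3a KO. The histone median is above 0 in all 5, the Polycomb median below 0 in all 5, and the developmental transcription factor median is 0.00 in batch 3.

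Histone genes stood furthest from the shares over all genes among the lists with at least 28 tested members. Of 39 tested, 16 were called higher and 0 lower, with a median log2 fold change of 0.50. The median was 0.50, 0.24 and 0.67 in batches 1, 2 and 3 and 0.51 in DKO against Dnmt3a KO. Hist3h2a, a gene of histone H2A, lay at 33.2 to 46.6 CPM (median 37.2) in LCD KO against 5.89 to 18.6 CPM (median 11.8) in WT (1.69 ± 0.20, adjusted p = 1.84e-06), and its neighbour Hist3h2ba, of H2B, at 44.2 to 59 CPM (median 53.3) in LCD KO against 14.1 to 40.8 CPM (median 25.4) in WT (1.05 ± 0.17, adjusted p = 0.000114). Neither gene's groups overlapped, and in DKO against Dnmt3a KO both were positive without a call (0.87 ± 0.34, adjusted p = 0.193 for Hist3h2a). The H4 gene Hist1h4d, at a lower level, lay at 6.29 to 17.9 CPM (median 11.7) in LCD KO against 0.948 to 3.97 CPM (median 2.48) in WT (2.16 ± 0.32, adjusted p = 3.29e-05), again without overlap, and was called in DKO against Dnmt3a KO (3.13 ± 0.68, adjusted p = 0.0141). Replication-independent variants were among the genes called higher: H2afj (0.97), H2afv (0.59), H2afz (0.59; not called in 5 of 13 refits (0.41 to 0.53)) and H2afx (0.47; not called in 9 of 13 refits (0.34 to 0.48)). Transcripts of replication-dependent histone genes usually lack a poly(A) tail, and the libraries were made from polyadenylated RNA, so the counts cover the polyadenylated share. The linker histone gene Hist1h1e (2.38) and the H4 genes Hist1h4b (2.54) and Hist1h4n (1.86; not called without WT 4 (1.52)) had medians under 1 CPM in WT, so that their fold changes rest on few counts. Near-identical histone copies may share reads. Without batch 1, 3 histone genes were called higher and 0 lower, and the list median was 0.50.

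Promoter windows of 250 bases before the annotated start (RefSeq, GRCm38.p6, which is not the mm9 build of the counts) were read for 7 short motifs on either strand: GGGCGG, known from SP1 sites, CACGTG, known as the E-box, TGACGTCA, known as the cyclic AMP element, CCAAT, known as the NF-Y box, TATAAA, known from core promoters, CACCC, known from KLF sites, and TGACNNNGC, known as the antioxidant element. No motif holds another. A window was found for 884 of the genes called higher, 880 called lower and 7777 tested but not called. The motif whose share differed most between genes called higher and lower was the NF-Y box. CCAAT was in 48.2% of windows of genes called higher, 34.5% of genes called lower, 36.2% of genes not called and 34.5% of all 27025 genes of the promoter table. Among the 15 histone genes called higher that have a window it was in 86.7%, and TATAAA in 46.7%, against 6.72% of all tested genes and 13% of the promoter table for TATAAA. Over all 34 tested histone genes with a window, called or not, CCAAT was in 73.5% and TATAAA in 35.3%. Windows of genes called lower had more CpG sites, a median of 18 against 14 in genes called higher and 16 in genes not called. The windows below show these letters in 2 histone genes called higher and in 2 of the genes with the largest rises, Ftl1, the ferritin light chain, and Narf. CCAAT was as frequent among the largest falls: it was in 5 of the 10 windows found for the 12 largest rises and in 5 of the 10 found for the 12 largest falls. Capitals mark CCAAT or TATAAA on either strand, and ATTGG is CCAAT read on the other strand. Klf10 and Zhx1 were not matched in the promoter table. A match is a string of letters and not a measured binding site.
Hist1h4d, chr13:23581318-23581567, plus strand: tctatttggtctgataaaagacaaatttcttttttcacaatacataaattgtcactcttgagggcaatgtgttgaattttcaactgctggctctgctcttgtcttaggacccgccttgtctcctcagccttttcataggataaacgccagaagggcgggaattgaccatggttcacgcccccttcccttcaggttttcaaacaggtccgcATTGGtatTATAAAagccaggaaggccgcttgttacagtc
Hist1h1e, chr13:23622559-23622808, minus strand: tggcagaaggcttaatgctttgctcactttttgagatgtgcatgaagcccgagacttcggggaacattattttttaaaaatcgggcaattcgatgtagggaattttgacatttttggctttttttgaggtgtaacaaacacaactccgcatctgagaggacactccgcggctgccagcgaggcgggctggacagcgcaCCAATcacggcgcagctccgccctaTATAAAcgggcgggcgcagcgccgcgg
Ftl1, chr7:45459887-45460136, minus strand: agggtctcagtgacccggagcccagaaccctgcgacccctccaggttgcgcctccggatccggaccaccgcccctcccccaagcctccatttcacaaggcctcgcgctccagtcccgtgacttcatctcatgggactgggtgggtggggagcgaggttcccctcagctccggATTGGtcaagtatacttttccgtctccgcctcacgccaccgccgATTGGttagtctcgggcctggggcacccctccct
Narf, chr11:121236986-121237235, plus strand: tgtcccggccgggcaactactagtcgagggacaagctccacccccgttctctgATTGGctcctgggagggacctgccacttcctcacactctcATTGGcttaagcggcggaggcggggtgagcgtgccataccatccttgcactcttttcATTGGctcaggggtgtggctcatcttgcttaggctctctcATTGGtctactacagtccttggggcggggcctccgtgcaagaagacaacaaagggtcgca
The presence of both motifs in the histone windows, and of CCAAT in those of Ftl1 and Narf, follows from the choice of windows. In the histone windows the 2 motifs lie close to each other and to the start. The windows of Ftl1 and Narf hold CCAAT 2 and 4 times and no TATAAA.

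Genes of chromosome replication and segregation leaned upwards. For DNA replication, 16 of 70 tested genes were called higher and 5 lower, with a median log2 fold change of 0.08. The histone chaperone gene Asf1b (0.89) and the origin and helicase-loading genes Orc6 (0.66), Cdc6 (0.55) and Gins2 (0.77) rose. Of the helicase subunits, 3 were called higher, Mcm3 (0.46; not called in 6 of 13 refits (0.37 to 0.46)), Mcm4 (0.34; not called in 11 of 13 refits (0.20 to 0.37)) and Mcm7, and 1, Mcm2, lower. Mcm7 lay at 49.6 to 62.9 CPM (median 55) in LCD KO against 33.4 to 46.8 CPM (median 36.9) in WT (0.53 ± 0.12, adjusted p = 0.00302) and Mcm2 at 72.3 to 98.9 CPM (median 87.7) in LCD KO against 103 to 152 CPM (median 124) in WT (-0.49 ± 0.12, adjusted p = 0.00363). Neither of these 2 genes had overlapping groups. Among kinetochore and spindle checkpoint genes, 11 of 56 tested genes were called higher and 1 lower, with a median log2 fold change of 0.14. Ska2, a subunit of the complex that couples kinetochores to microtubules, lay at 18.3 to 55.4 CPM (median 24.3) in LCD KO against 7.26 to 14.1 CPM (median 10.8) in WT (1.34 ± 0.20, adjusted p = 3.85e-05), without overlap. The centromere proteins Cenpu (1.19), Cenpt (0.91) and Cenpl (0.85) rose as well, and the 1 gene called lower was the checkpoint gene Mad1l1 (-0.58). Among kinesins, dynein and spindle assembly genes, 19 (14.2%) were called higher and 7 (5.22%) lower. The median of this list was 0.06 in the fit, but -0.08, 0.20 and 0.07 in batches 1, 2 and 3. It was below 0 in batch 1, so the shift of the list as a whole was not shared by all batches. The microtubule plus-end binding gene Mapre3 lay at 4.54 to 19.5 CPM (median 7.31) in LCD KO against 0.316 to 3.61 CPM (median 1.14) in WT (2.27 ± 0.35, adjusted p = 5.47e-05), again without overlap. Of tubulins and microtubule-associated proteins, with 6 higher and 2 lower of 45, median 0.00, the microtubule destabilizer Stmn1 lay at 37.3 to 58.1 CPM (median 50.1) in LCD KO against 19.6 to 30.9 CPM (median 28.8) in WT (0.88 ± 0.14, adjusted p = 0.000105; DKO against Dnmt3a KO 0.92 ± 0.24, adjusted p = 0.0444).

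Cyclins, CDKs and the anaphase-promoting complex were close to the shares over all genes (10 higher and 7 lower of 102, median -0.04), but single members changed in opposite directions. The E-cadherin gene Cdh1 was counted among the 7 lower by its symbol, which it shares with an activator of the complex. Ccne1, the cyclin of entry into S phase, lay at 11.7 to 31.8 CPM (median 24.5) in LCD KO against 4.69 to 11.7 CPM (median 8.08) in WT (1.6 ± 0.20, adjusted p = 2.66e-06), with 6 of 7 LCD KO libraries above every WT library, and was called in DKO against Dnmt3a KO too (1.67 ± 0.32, adjusted p = 0.00541). Ccng1, a cyclin of the p53 response, lay at 10.7 to 19.2 CPM (median 14.4) in LCD KO against 1.58 to 5.59 CPM (median 4.98) in WT (1.62 ± 0.28, adjusted p = 0.00025), without overlap, while its relative Ccng2 (-1.40) fell. Cdk1, the kinase of meiotic and mitotic entry, rose (0.48 ± 0.12, adjusted p = 0.00477), with 5 of 7 libraries beyond WT. Mos, the kinase that holds the egg in its second arrest, was lower, at 512 to 1594 CPM (median 828) in LCD KO against 704 to 3029 CPM (median 2111) in WT (-0.77 ± 0.12, adjusted p = 8.8e-05), with overlapping groups. Cohesin and condensin genes were split (6 higher and 4 lower of 36, median -0.01), with the meiosis-specific cohesin gene Stag3 (0.77; not called without WT 1 or WT 2 or WT 4 (0.58 to 0.75)) and the condensin gene Smc2 (0.63) higher and the mitotic cohesin gene Rad21 (-0.55) lower. Recombination and Fanconi genes (5 higher and 5 lower of 59, median 0.03) and end joining, mismatch and excision repair genes (6 higher and 7 lower of 68, median 0.01) were near the background.

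Ribosome assembly factors leaned upwards, while translation factors had more lower than higher calls with little shift of the list. For ribosome biogenesis, 14 of 92 tested genes were called higher and 4 lower, with a median log2 fold change of 0.12; the median was above 0 in all 3 batches (0.06, 0.20 and 0.08). Rrp9, which guides processing of the small-subunit RNA, lay at 69 to 179 CPM (median 96.2) in LCD KO against 27.5 to 62 CPM (median 48) in WT (1.23 ± 0.17, adjusted p = 1.95e-05), and Nop14, of the same processome, at 58.9 to 82.5 CPM (median 74) in LCD KO against 31.6 to 49.6 CPM (median 44.3) in WT (0.78 ± 0.13, adjusted p = 0.000105). The groups were apart for both genes. Pno1 (0.79) and Imp4 (0.51), also of small-subunit assembly, rose with overlapping groups, and Imp4 was called in DKO against Dnmt3a KO (0.93 ± 0.23, adjusted p = 0.0315). For initiation and elongation factors, 3 of 74 tested genes were called higher and 11 lower, with a median log2 fold change of -0.06. The batch medians were -0.07, -0.03 and -0.02. Without batch 1, 0 of these factors were called higher and 0 lower, with a list median of -0.05. The initiation factor subunit Eif3b (-0.57) and the release factor Gspt2 (-0.82) fell, whereas Eif1 (0.46), the start-codon factor, rose. Transfer RNA synthetases had few calls (1 higher and 2 lower of 39, median 0.00). Mitochondrial ribosomal proteins had medians of either sign in the batches: 6 higher and 3 lower of 77, median 0.06 in the fit, but medians of 0.30, -0.21 and -0.05 in batches 1, 2 and 3, and 30 of 77 called higher in batch 1 alone.

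For fatty acid oxidation and the carnitine shuttle, 9 of 48 tested genes were called higher and 1 lower, with a median log2 fold change of 0.20, with batch medians of 0.25, 0.08 and 0.13 and 0.20 in DKO against Dnmt3a KO. Crot, the peroxisomal carnitine octanoyltransferase, lay at 13.7 to 20.4 CPM (median 15.7) in LCD KO against 4.33 to 12.2 CPM (median 7.42) in WT (1.22 ± 0.22, adjusted p = 0.000364), without overlap. The lipid droplet coat gene Plin2 (1.12) and the peroxisomal reductase Decr2 (1.53) rose. Pyruvate oxidation and the TCA cycle had 7 higher and 1 lower of 45, median 0.04, among them the cytosolic dehydrogenases Idh1 (1.06) and Mdh1 (0.69) and the pyruvate carrier gene Mpc2 (0.58). The lactate dehydrogenase gene Ldha (1.36) rose from a low level and the lactate and pyruvate transporter Slc16a1 (-0.81) fell. Cholesterol and isoprenoid synthesis had 7 higher and 2 lower of 31, median 0.00, so that called members rose while the list as a whole was not shifted. Hsd17b7, an enzyme of sterol synthesis, lay at 63.6 to 111 CPM (median 81.1) in LCD KO against 35.9 to 49.7 CPM (median 49.3) in WT (0.97 ± 0.15, adjusted p = 4.47e-05), and Ggps1, which makes geranylgeranyl diphosphate, at 26.8 to 50.7 CPM (median 36.2) in LCD KO against 13.5 to 23.2 CPM (median 19.2) in WT (1.0 ± 0.15, adjusted p = 3.23e-05). Both were without overlap. The lipid-binding START protein gene Stard5 (-2.24) fell. Peroxisome biogenesis had 3 higher and 1 lower of 20, median 0.08, with Pxmp4 (1.30) and Pex11a (1.0) higher and Pex11g (-0.83) lower.

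Mitochondrial import and protease genes had 8 higher and 1 lower of 60, median 0.07. Chchd10, of the intermembrane space, lay at 55.6 to 92.8 CPM (median 68.3) in LCD KO against 30.2 to 47.2 CPM (median 33.2) in WT (0.96 ± 0.13, adjusted p = 9.94e-06), and Chchd7 at 95.1 to 136 CPM (median 117) in LCD KO against 45.2 to 82.2 CPM (median 60.1) in WT (0.83 ± 0.13, adjusted p = 4.8e-05; DKO against Dnmt3a KO 1.0 ± 0.23, adjusted p = 0.0179). Neither overlapped. The list median was 0.17, -0.01 and 0.03 in batches 1 to 3, so most of the shift of the list came from batch 1. Genes of mitochondrial dynamics and genome maintenance had a median below 0 in the fit (2 higher and 4 lower of 45, median -0.15). Their batch medians were -0.22, 0.14 and -0.20, so the shift was not shared by all batches. The share called lower, 8.89%, was near the 9.44% over all genes. Among those called lower were Mtfr2 (-1.68), a mitochondrial fission regulator, and Polrmt (-0.73), the mitochondrial RNA polymerase. Mtfr2 had values of opposite sign in the 2 comparisons, a difference that was not tested. It lay at 20.6 to 154 CPM (median 46.6) in LCD KO against 71.1 to 243 CPM (median 179.8) in WT (-1.68 ± 0.18, adjusted p = 5.71e-07), but at 369 to 520 CPM in DKO against 192 to 242 CPM in Dnmt3a KO (1.04 ± 0.30, adjusted p = 0.0651).

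Protein folding and turnover moved in parts. Unfolded protein response and ER-associated degradation genes had 9 higher and 6 lower of 59, median 0.10, and the length offset gave 13 higher and 5 lower. Xbp1, the transcription factor of the response, lay at 5.6 to 9.21 CPM (median 6.66) in LCD KO against 2.21 to 3.79 CPM (median 2.79) in WT (1.25 ± 0.24, adjusted p = 0.000661; DKO against Dnmt3a KO 2.14 ± 0.38, adjusted p = 0.00251), without overlap. Selenos (2.28), Ddit3 (1.01) and Dnajb9 (0.83) rose too. The ER chaperone Hspa5 (0.44; not called without LCD KO 1 or WT 3 or WT 4 (0.39 to 0.42)) was called higher, while Hsp90b1 (-0.49) and Pdia6 (-0.55), which fold secreted proteins beside it, were called lower, so the chaperones did not move together. Autophagy genes had 10 higher and 2 lower of 49, median 0.00, and the length offset gave 12 higher and 3 lower. Map1lc3a, a coat protein of the autophagosome, lay at 98.2 to 161 CPM (median 119) in LCD KO against 60.1 to 96.9 CPM (median 81.1) in WT (0.64 ± 0.12, adjusted p = 0.000666), and Gabarapl2, a related coat protein, at 89 to 119 CPM (median 111) in LCD KO against 44.7 to 92.1 CPM (median 50.1) in WT (0.90 ± 0.14, adjusted p = 6.48e-05). The groups were apart for Map1lc3a and overlapped for Gabarapl2. The mitophagy receptor Bnip3 (0.97) and the protease Atg4a (0.95) rose, and Atg4a was called in DKO against Dnmt3a KO (1.58 ± 0.33, adjusted p = 0.00985). Lysosomal genes had 8 higher and 5 lower of 62, median 0.13, with 13 higher and 4 lower under the length offset. Proteasome genes were near the background (3 higher and 1 lower of 47, median 0.06), but the activator subunit Psme2 lay at 69.3 to 183 CPM (median 95) in LCD KO against 12.5 to 33 CPM (median 23.4) in WT (2.12 ± 0.23, adjusted p = 1.84e-06), without overlap, while the nuclear activator Psme4 (-0.78) fell.

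Among glutathione and thioredoxin genes, 11 of 53 tested genes were called higher and 5 lower, with a median log2 fold change of 0.10. Msrb3, which repairs oxidized methionine in the ER, lay at 118 to 219 CPM (median 162) in LCD KO against 67.7 to 97 CPM (median 79.8) in WT (1.07 ± 0.19, adjusted p = 0.000364), without overlap. The membrane transferase Mgst1 (1.73), the lipid peroxidase Gpx4 (0.53) and thioredoxin Txn1 (0.54) rose, while Gclc (-1.64; not called without WT 4 (-1.32)) and Gsr (-1.44; not called in 9 of 13 refits (-1.6 to -1.26)), which make and reduce glutathione, were called lower from under 10 CPM. Iron genes had 5 higher and 1 lower of 48, median 0.03. Both ferritin chains rose, Ftl1 at 115 to 966 CPM (median 276) in LCD KO against 64.2 to 167 CPM (median 114) in WT (1.59 ± 0.21, adjusted p = 1.61e-05) and Fth1 at 178 to 421 CPM (median 260.5) in LCD KO against 113 to 205 CPM (median 182) in WT (0.66 ± 0.14, adjusted p = 0.00128), with overlapping groups. Ftl1 has near-identical copies in the mouse genome that may share its reads. The haem oxygenase Hmox2 (-0.89) fell and was lower in DKO than in Dnmt3a KO too (-1.57 ± 0.32, adjusted p = 0.00811). In one-carbon and methionine metabolism (3 higher and 6 lower of 38, median -0.02) named members were lower. Cth, which makes cysteine from cystathionine, lay at 3.06 to 12 CPM (median 8.51) in LCD KO against 20.5 to 37.6 CPM (median 26.4) in WT (-1.92 ± 0.25, adjusted p = 7.32e-06; DKO against Dnmt3a KO -2.25 ± 0.45, adjusted p = 0.00769). Its groups did not overlap, and it was called in both comparisons. The polyamine enzyme Sms (-0.69) and the S-adenosylmethionine synthase Mat2a (-0.68) fell. Purine and pyrimidine synthesis had 8 higher and 5 lower of 53, median 0.05.

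Cilium and flagellum genes had 16 higher and 5 lower of 104, median 0.10. Arl13b, a small GTPase of the ciliary membrane, lay at 42.2 to 62.5 CPM (median 52.5) in LCD KO against 13.7 to 19.3 CPM (median 18.4) in WT (1.57 ± 0.14, adjusted p = 3.01e-08), and Rsph9, of the radial spoke of motile cilia, at 8.51 to 23.7 CPM (median 16.4) in LCD KO against 4.11 to 6.95 CPM (median 5.17) in WT (1.62 ± 0.24, adjusted p = 3.75e-05). Both were without overlap and called in DKO against Dnmt3a KO (1.51 ± 0.25, adjusted p = 0.00163 for Arl13b and 1.88 ± 0.45, adjusted p = 0.0253 for Rsph9). The cilium genes Iqcb1 (0.82), Dnal1 (1.72) and Wdr34 (1.30) rose as well. The list median was 0.07, 0.21 and -0.04 in batches 1, 2 and 3, below 0 in batch 3, so the shift of the list as a whole was not shared by all batches. Spermatid and sperm genes had 8 higher and 2 lower of 32, median 0.23, with the synaptonemal complex gene Sycp3 at 31.4 to 151 CPM (median 66.1) in LCD KO against 13.9 to 39.7 CPM (median 22.7) in WT (1.43 ± 0.24, adjusted p = 0.000332) and the protamine gene Prm2 (-1.36) lower. The batch medians of this list were 0.01, 0.10 and 0.35, and the median in DKO against Dnmt3a KO was -0.01, so the list's median was near 0 in batch 1 and in that comparison.

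In the TGF-beta and BMP pathway ligands bind paired receptor kinases, which phosphorylate SMAD proteins, and these enter the nucleus and act on early-response genes. Oocytes secrete ligands of this family that act on the surrounding granulosa cells. Of 49 tested genes of the list, 6 were called higher and 13 lower, with a median of -0.22. The batch medians were -0.46, -0.01 and -0.08, so most of the shift of the list came from batch 1. Without batch 1, 3 genes of the list were called higher and 3 lower, with a list median of -0.11. Roles were assigned after the values were seen, and not every tested member was given one. Read by role, the calls of receptors and SMADs lay on the opposite side from those of early-response genes. Of 8 receptors 0 were called higher and 3 lower. Acvr2b, a type II activin receptor, lay at 0.365 to 3.36 CPM (median 2.59) in LCD KO against 2.36 to 12.4 CPM (median 4.58) in WT (-1.66 ± 0.37, adjusted p = 0.00241; DKO against Dnmt3a KO -2.49 ± 0.65, adjusted p = 0.0407). Acvr1 (-1.46; not called in 6 of 13 refits (-1.47 to -1.07)) and Bmpr1a (-0.68; not called in 7 of 13 refits (-0.72 to -0.60)), type I receptors, were called lower, while Tgfbr1 (0.13), Bmpr1b (0.23) and Bmpr2 (0.23) were not called. Of 8 SMADs and SMURF ligases 0 were called higher and 4 lower. Smad5, which carries BMP signals, lay at 0.365 to 3.86 CPM (median 1.59) in LCD KO against 3.5 to 11.5 CPM (median 4.76) in WT (-1.97 ± 0.35, adjusted p = 0.000259), with 6 of 7 LCD KO libraries below every WT library. Smad1 (-0.90; not called without WT 4 (-0.86)), Smad2 (-0.48) and Smurf2 (-0.70) were also lower, and Smad4 (-0.04), the partner shared by the other SMADs, was not called.

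Of 10 ligands, 0 were called higher and 2 lower, Bmp6 (-0.43; not called without LCD KO 1 or WT 1 (-0.38 to -0.37)) and Tgfb2 (-0.38; not called without LCD KO 3 (-0.34)). The oocyte's own growth factors Gdf9 (-0.22) and Bmp15 (-0.72) were not called. Ligand-binding proteins were split, 2 higher and 2 lower of 8, with Fstl3 (1.33) and Fstl1 (0.79; not called in 8 of 13 refits (0.63 to 0.80)) higher. The early-response genes lay on the other side from the receptors and SMADs: 3 of 5 were called higher and 0 lower. Besides Klf10, Klf11 lay at 89.9 to 140.3 CPM (median 111) in LCD KO against 39.2 to 63.5 CPM (median 59.2) in WT (1.0 ± 0.14, adjusted p = 1.13e-05; DKO against Dnmt3a KO 1.0 ± 0.24, adjusted p = 0.0276), without overlap, and Id3, an inhibitor of helix-loop-helix factors, at 24.7 to 58.1 CPM (median 44.8) in LCD KO against 10.2 to 35 CPM (median 17.2) in WT (1.15 ± 0.20, adjusted p = 0.000262). Id1 (0.60) and Id2 (0.28) were not called. Median log2 fold changes by role were -0.40 for receptors, -0.49 for SMADs and ligases, -0.19 for ligands, and 1.0 for early-response genes. In DKO against Dnmt3a KO they were -0.25, -0.30, 0.08 and 0.76. The direction of the early-response set rests in part on Klf10, which was a starting gene of the comparison.

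**Figure D5:**
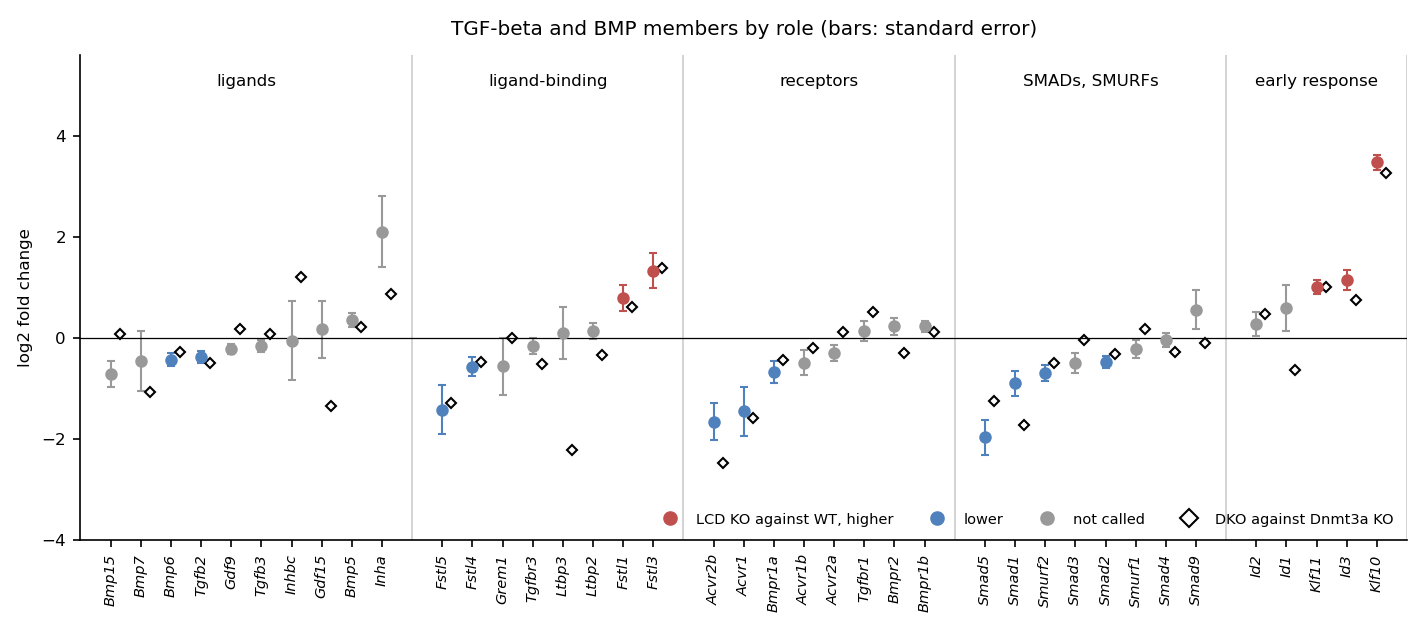
Log2 fold change of LCD KO against WT (y, filled points with standard errors, coloured by call) and of DKO against Dnmt3a KO (open diamonds) for the tested members of the TGF-beta and BMP list that were given a role, grouped by role along x. Called receptors and SMADs lie below 0 and called early-response genes above 0, with Klf10 at 3.48.

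For WNT and beta-catenin, 0 of 49 tested genes were called higher and 10 lower, with a median log2 fold change of -0.14, and the batch medians were -0.20, -0.20 and -0.14. Ctnnb1 (-0.61), the beta-catenin gene, Apc (-0.61), which directs its destruction, the receptor Fzd3 (-0.84) and the nuclear partners Tcf7l2 (-0.96) and Tcf7 (-0.65) were among the genes called lower. Tle6 (-0.76), a WNT corepressor by family that also belongs to the maternal complex under the oocyte membrane, fell too. Without batch 1, 1 WNT gene was called higher and 0 lower, with a list median of -0.12. The MAP kinase cascade had 3 higher and 10 lower of 93, median -0.10, including Map2k1 (-0.42; not called without LCD KO 1 or WT 1 (-0.38 to -0.32)), a kinase downstream of Mos, while Mapk11 (1.10) rose. For calcium release, pumps and channels, 2 of 62 tested genes were called higher and 7 lower, with a median log2 fold change of -0.20. Camk4, a calcium-dependent kinase, lay at 0 to 4.95 CPM (median 1.85) in LCD KO against 5.12 to 8.11 CPM (median 6.32) in WT (-1.89 ± 0.37, adjusted p = 0.000832), without overlap. Rcan1 (-1.27), an inhibitor of calcineurin, fell too. Meiotic arrest rests on cyclic nucleotides, and genes of their synthesis and breakdown had 4 higher and 7 lower of 49, median -0.07. Gnai1, an inhibitory G protein subunit of adenylate cyclase, lay at 1.65 to 9.63 CPM (median 5.72) in LCD KO against 12.8 to 31.2 CPM (median 16.1) in WT (-1.70 ± 0.23, adjusted p = 7.72e-06; DKO against Dnmt3a KO -1.21 ± 0.35, adjusted p = 0.0715), without overlap, and the phosphodiesterase Pde3b (-0.98) fell. PI3K, AKT, mTOR and AMPK genes had 7 higher and 9 lower of 77, median -0.12, and G protein-coupled receptors 3 higher and 7 lower of 61, median -0.11. The shares called lower in the MAP kinase (10.8%), calcium (11.3%), PI3K (11.7%) and receptor lists (11.5%) were near the 9.44% over all genes.

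Cadherin and junction genes were called lower more often than higher, and 3 regulators of cell shape fell. Cdc42ep3, an effector of the polarity GTPase Cdc42, lay at 1.85 to 9.52 CPM (median 4.08) in LCD KO against 22.6 to 59.7 CPM (median 43.7) in WT (-3.14 ± 0.30, adjusted p = 1.69e-07; DKO against Dnmt3a KO -1.28 ± 0.53, adjusted p = 0.229). Arhgap12, a GTPase-activating protein, lay at 61.9 to 92.3 CPM (median 73.9) in LCD KO against 106 to 215 CPM (median 179.7) in WT (-1.11 ± 0.15, adjusted p = 1.61e-05), and the GTPase gene Rhoh at 37.4 to 40.5 CPM (median 38.5) in LCD KO against 42.9 to 88.4 CPM (median 70) in WT (-0.77 ± 0.14, adjusted p = 0.000312; DKO against Dnmt3a KO 0.20 ± 0.24, adjusted p = 0.77). The groups did not overlap for any of these 3 genes. For cadherins and protocadherins, 1 of 32 tested genes were called higher and 10 lower, with a median log2 fold change of -0.13. Cdh4, or R-cadherin, lay at 2.48 to 5.18 CPM (median 4.02) in LCD KO against 8.86 to 18.4 CPM (median 13) in WT (-1.86 ± 0.21, adjusted p = 1.42e-06; DKO against Dnmt3a KO -2.61 ± 0.45, adjusted p = 0.00183), without overlap. Pcdh9, a protocadherin, lay at 44.3 to 91 CPM (median 60.3) in LCD KO against 82 to 186 CPM (median 155) in WT (-1.15 ± 0.14, adjusted p = 2.05e-06; DKO against Dnmt3a KO -1.50 ± 0.25, adjusted p = 0.00163). Cdh1 (-0.79), the E-cadherin that joins oocyte and embryo cells, fell in LCD KO but was not called in DKO against Dnmt3a KO (-0.05 ± 0.29, adjusted p = 0.965). For gap and tight junctions, 4 of 42 tested genes were called higher and 10 lower, with a median log2 fold change of -0.08. Besides Tmem47, Gja4 (-0.51), the connexin that links the oocyte to its granulosa cells, fell, with overlapping groups. The adhesion linker Jup (1.0), plakoglobin, rose. Actin and myosin genes (9 higher and 10 lower) and integrins, laminins and collagens (8 higher and 10 lower of 79, median -0.21) were close to the shares over all genes.

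For O-glycosylation and proteoglycans, 1 of 56 tested genes were called higher and 12 lower, with a median log2 fold change of -0.21; the median was 0.07 in DKO against Dnmt3a KO, on the other side of 0. The called genes included the mucin-type transferase Galnt3 (-1.03), with the 1 rise in another member of that family, Galnt13 (2.87). N-glycosylation had 5 higher and 9 lower of 73, median -0.12, led by the mannosidase Man2a1 (-1.44). Ubiquitin ligases of the TRIM, RNF and MARCH families had 9 higher and 23 lower of 142, median -0.16, with 12 higher and 24 lower under the length offset. The batch medians were -0.28, -0.01 and -0.10, and the median was 0.05 in DKO against Dnmt3a KO. Rnf135, a ligase of antiviral RNA sensing, lay at 1.1 to 3.3 CPM (median 1.46) in LCD KO against 7.57 to 19 CPM (median 10.8) in WT (-2.65 ± 0.31, adjusted p = 1.81e-06), without overlap. Trim15 lay at 12.9 to 131 CPM (median 16.5) in LCD KO against 24.2 to 208 CPM (median 69.2) in WT (-1.43 ± 0.21, adjusted p = 3.98e-05), and Trim68 (-1.39) and Rnf145 (-1.38) fell. Cullin adaptors of the F-box and Kelch kinds had 12 higher and 14 lower of 152, median -0.10, near the background, but the related genes Kbtbd6 and Kbtbd7 both fell, at 18.1 to 96.5 CPM (median 34) in LCD KO against 75.7 to 284 CPM (median 139) in WT (-1.86 ± 0.20, adjusted p = 8.51e-07) for the first and 47.4 to 114 CPM (median 83.7) in LCD KO against 138 to 282 CPM (median 183) in WT (-1.29 ± 0.18, adjusted p = 2.48e-05) for the second. For deubiquitinases, 3 of 69 tested genes were called higher and 12 lower, with a median log2 fold change of -0.12. Usp3 lay at 72.2 to 102 CPM (median 90.2) in LCD KO against 118 to 183 CPM (median 149) in WT (-0.76 ± 0.12, adjusted p = 4.92e-05) and Usp13 (-1.52) fell, while Stambp, which acts on endosomes, lay at 58.8 to 119.6 CPM (median 88.1) in LCD KO against 25.1 to 48.4 CPM (median 36.6) in WT (1.33 ± 0.13, adjusted p = 1.69e-07; DKO against Dnmt3a KO 1.25 ± 0.23, adjusted p = 0.00396). Usp3 and Stambp were both without overlap, in opposite directions.

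In the Polycomb and developmental lists lower calls outnumbered higher ones, though most members were not called. For the Polycomb group, which writes and reads silencing marks on histones, 0 of 32 tested genes were called higher and 8 lower, with a median log2 fold change of -0.20, and the batch medians were -0.35, -0.16 and -0.19, with -0.25 in DKO against Dnmt3a KO. Suz12, a core subunit of the methyltransferase complex, lay at 59.8 to 118 CPM (median 77.6) in LCD KO against 97.4 to 169.7 CPM (median 120.4) in WT (-0.61 ± 0.14, adjusted p = 0.00297), with 6 of 7 LCD KO libraries below every WT library. Phc3 (-0.77), Rybp (-0.48; not called without LCD KO 2 or WT 2 or WT 4 (-0.47 to -0.39)) and Bcor (-1.30; not called in 10 of 13 refits (-1.40 to -1.02)), of the ubiquitin-ligase complex, were called lower as well. Without batch 1, 0 Polycomb genes were called, and the median was -0.22. Chromatin remodellers had 1 higher and 4 lower of 43, median -0.08, a share called lower of 9.3% that is near the 9.44% over all genes. Chd7 lay at 14.8 to 29.5 CPM (median 27) in LCD KO against 34.1 to 66 CPM (median 48.8) in WT (-1.02 ± 0.16, adjusted p = 6.01e-05; DKO against Dnmt3a KO -1.20 ± 0.28, adjusted p = 0.0236), without overlap, Arid1a (-0.87) and Arid2 (-0.70) fell, and Atrx (0.56) rose. The count table lists 244 developmental transcription factors, of which 54 were tested, and 1 was called higher and 15 lower, with a median of -0.37. A gene near 0 in one group passes the low-count filter only through the group where it is high, so these counts and medians describe the tested members alone. Isl1 lay at 0.825 to 2.04 CPM (median 1.34) in LCD KO against 2.78 to 6.46 CPM (median 4.98) in WT (-1.88 ± 0.33, adjusted p = 0.000271; DKO against Dnmt3a KO -3.05 ± 0.69, adjusted p = 0.0176), without overlap. Ebf2 (-2.96) and Gata6 (-2.29) also fell, from under 6 CPM in every WT library, with medians of 0 CPM in LCD KO against 1.89 CPM in WT for Ebf2 and 0.56 against 1.96 CPM for Gata6. The batch medians were -0.62, -0.24 and 0.00, so the list was not lower in batch 3. Olfactory and vomeronasal receptor genes, 30 of 1517 tested, had 0 higher and 6 lower with a median of -0.22. The same limit of the filter holds for them. They were at a few CPM and may share reads with near copies.

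Many lists were near the shares over all genes or below them. Above them were 3 prime end processing, with 16.7% called lower, and Notch and Hedgehog genes, with 17.9% called higher. RNA polymerase II and general factors had 2 higher and 1 lower of 55, median 0.03, splicing factors 4 higher and 9 lower of 113, median -0.08, RNA and tRNA modification 2 higher and 4 lower of 77, median -0.05, and endocytosis and ESCRT genes 7 higher and 6 lower of 129, median -0.04. In RNA export and the nuclear pore, 3 higher and 9 lower of 80, median -0.12 were called, and in 3 prime end processing 1 higher and 5 lower of 30, median -0.14, led by Cpsf6, a subunit of cleavage factor I, at 8.4 to 15.1 CPM (median 9.9) in LCD KO against 18.1 to 27.8 CPM (median 23.2) in WT (-1.06 ± 0.17, adjusted p = 0.000119). C2H2 zinc finger genes (25 higher and 23 lower of 332, median -0.03), solute carriers (19 higher and 16 lower of 210, median 0.02) and RIKEN and predicted genes (61 higher and 53 lower of 747, median 0.01) were balanced. Interferon-stimulated genes had 4 higher and 5 lower of 44, median -0.04, and cytokine, Toll-like receptor and NF-kB genes 5 higher and 8 lower of 84, median -0.07. Notch and Hedgehog genes had 5 higher and 1 lower of 28, median -0.31, with higher calls beside a negative median.

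Of the 12 largest rises and 12 largest falls among genes above 30 CPM with the same sign in all batches, several have no list above. Zhx1, a zinc finger and homeobox repressor, lay at 34.5 to 67.3 CPM (median 40.4) in LCD KO against 6.28 to 11.4 CPM (median 7.66) in WT (2.47 ± 0.20, adjusted p = 4.43e-09; DKO against Dnmt3a KO 2.73 ± 0.34, adjusted p = 4.75e-05). Sertad3, a cofactor of E2F transcription, lay at 75.6 to 169.9 CPM (median 97.7) in LCD KO against 32.3 to 54.2 CPM (median 45.4) in WT (1.44 ± 0.14, adjusted p = 1.69e-07), and Pdcd6, a calcium-binding protein of the secretory path, at 179 to 406 CPM (median 301) in LCD KO against 81.1 to 161 CPM (median 104) in WT (1.40 ± 0.14, adjusted p = 1.79e-07). The groups were apart for these 3 genes. On the lower side, Tmem30b, a subunit of lipid flippases, lay at 6.94 to 15.6 CPM (median 8.88) in LCD KO against 18.9 to 38.9 CPM (median 33.5) in WT (-1.67 ± 0.21, adjusted p = 3.41e-06), and the zinc finger gene Zfp982 at 12.5 to 26.4 CPM (median 18.9) in LCD KO against 32.6 to 80.3 CPM (median 57.6) in WT (-1.45 ± 0.17, adjusted p = 1.1e-06; DKO against Dnmt3a KO -1.47 ± 0.29, adjusted p = 0.00552), both without overlap. Lrrc8d, a subunit of volume-regulated anion channels, lay at 3.81 to 35.9 CPM (median 5.92) in LCD KO against 15.3 to 122 CPM (median 27) in WT (-2.03 ± 0.28, adjusted p = 2.97e-05). Kit, the receptor through which granulosa cells support oocyte growth, lay at 61.5 to 599.6 CPM (median 104) in LCD KO against 194 to 1087 CPM (median 249) in WT (-1.40 ± 0.26, adjusted p = 0.00132), with overlapping groups. WT 4 and the LCD KO libraries of batch 2 were all high for Kit. Among the genes with the most counts, Khdc3 (-0.64), Nlrp14 (-0.68), Padi6 (-0.80) and Plat (-0.51) fell, the first 3 being products stored for the early embryo, and Tmsb10 (0.46), Pold3 (0.41) and Slc25a5 (1.02) rose.

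DKO against Dnmt3a KO tested the LCD allele with Cre in all libraries, in 2 against 2 libraries of batch 3. There 126 genes were called higher and 109 lower (1.99% of 11794 together), and 78 to 115 genes when any 1 of the 4 libraries was left out. Both comparisons called 165 genes, which is 7.63% of the LCD KO calls and 70.2% of the DKO calls. For 164 of the 165 the direction was the same, 90 higher and 74 lower, and the exception was Npl (-1.76 in LCD KO and 5.88 in DKO). Among all 1049 genes called higher in LCD KO, 89.5% were positive in DKO against Dnmt3a KO, with a median of 0.52, and among the 1113 called lower 84.6% were negative, with a median of -0.40. Over all tested genes 49.6% were positive. Most of the differences called in LCD KO against WT thus had the same sign, at a smaller median size, where both groups carried Cre. These genes were chosen by their calls in LCD KO against WT, which raises their median there. Dnmt3a was also deleted in both other groups, so the smaller size cannot be assigned to Cre. Genes called in both included Klf10, Zhx1, Arl13b, Narf, Stambp, Ccne1, Xbp1 and Hist1h4d on the higher side, and Tet3, Tmem47, Cdh4, Pcdh9, Isl1, Cth, Chd7 and Hmox2 on the lower side. Mt1 (0.01 ± 0.26, adjusted p = 0.993), Tle6 (0.15 ± 0.27, adjusted p = 0.86), Cdh1 (-0.05 ± 0.29, adjusted p = 0.965) and Rhoh (0.20 ± 0.24, adjusted p = 0.77) were called in LCD KO against WT alone, and whether their values differ between the 2 comparisons was not tested.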

How the data were processed

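Libraries of 10 pooled GV oocytes were sequenced as 150-bp paired-end reads. Per the submitters' processing notes, Trim Galore 0.5.0, HISAT2 2.1.0 and featureCounts 1.6.4 were used with build mm9. The deposited values are raw counts per gene, which the authors left unnormalized; the annotation, strand setting and treatment of multiply mapped reads are not stated by labels or headers. After removal of 92 spike-in rows 24450 features remained.

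Counts were fitted with edgeR 4.0.16 (R 4.3.3; TMM factors, filterByExpr, robust quasi-likelihood F test) on group plus batch, using all 22 libraries whose batch the labels give, with 14 residual degrees of freedom. These include 3 HD mutant libraries and 2 labelled Tet3 KO, which enter the shared spread, the low-count filter and the scaling but no comparison; the latter go against their label (Tet3 263 and 359 CPM). Columns of the triple knockout repeated those labelled Tet3 KO and were left out. A call is a Benjamini-Hochberg adjusted p below 0.05. CPM use TMM-scaled library sizes, and batch differences are differences of mean log2(CPM + 0.5). DESeq2 1.42.0 and limma-voom (limma 3.58.1) were alternatives. Replicates differed beyond sampling noise (chi-square per degree of freedom at least 3.36 over 36 pairs), and the labels do not say that pools came from separate animals, so p-values measure the spread between pools.

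Members and the 84 gene lists were chosen with earlier results of these data known. Named genes were the 12 largest changes each way above 30 CPM with the same sign in every batch, the 6 most abundant called genes each way, and up to 4 called genes per list above 1 CPM. Some genes and 1 gene list are not reported here. Other names, among them uncalled genes, and the TGF-beta roles were chosen after values were seen. "Refits" are the 13 fits that each leave out 1 library.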

Additional observations from a re-analysis of the deposited data

Results flagged for a closer look

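In groups of 6 or 7 libraries, 1 library stood far from the rest for 5 of the 50 groups checked (25 genes, WT and LCD KO), where chance flags about 1 in 20. WT 4, the single WT library of batch 2, was apart in 4 of them. It had 13.7 CPM of the cilium GTPase Arl13b, against a WT median of 18.4 CPM. It had 121.9 CPM of the anion channel subunit Lrrc8d (WT median 27 CPM), 208.3 CPM of the ligase Trim15 (69.2 CPM) and 1087 CPM of the receptor Kit (249.1 CPM). In the fifth case LCD KO 2 had 150.6 CPM of the synaptonemal complex gene Sycp3, against an LCD KO median of 66.1 CPM.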

How the results depend on the processing

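For LCD KO against WT the count of 2162 called genes stayed within 1.5 times under RLE factors (2174), DESeq2 (2462), no filter on low counts (2374), a mean of at least 5 CPM (1913), the 13 libraries alone (2350), limma-voom (2031), removal of the Tet3 KO libraries (2052), of batch 2 (2051) or of Rn45s (2161), batch 1 alone (2851) and the length offset (2260), and was 1685 to 2309 when each library was left out in turn. It was 544 with no batch term, 12 in batch 2 alone, 88 in batch 3 alone and 363 without batch 1. The cause was not tested. Higher calls were 48.5% of all calls, against 57.0% with no batch term and 58.0% in batch 3 alone. For DKO against Dnmt3a KO the 126 higher and 109 lower calls became 382 calls with DESeq2, 449 with no filter (43.7% higher, against 53.6%), 20 with no batch term and 78 to 115 without each library in turn.

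Replicate numbers did not pair the samples: WT and LCD KO libraries of the same number deviated together in 5 of 6 cases, but with -0.39 for number 5, and 0 of 6 correlated best with their own number. Deviations were taken from group means, so a shared batch enters these correlations. Number 5 alone joins libraries of different batches, WT 5 of batch 3 and LCD KO 5 of batch 2. When replicate number replaced batch as the block, 170 genes were called (59.4% higher), over the libraries that share a number. The block of number 5 then held libraries of different batches. A replicate block over the 4 libraries of DKO against Dnmt3a KO called 188.

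Some named genes changed sign. In batch 2 alone these were Acvr2a (0.0212), Cdh8 (0.15), Cstf2t (0.22), Fstl1 (-0.30), Gdf9 (0.0269), Hells (0.11), Map3k8 (-0.0968), Mpc2 (-0.0857), Pak1 (0.0725), Pdia6 (0.0895), Pigx (-0.15), Taf4 (0.0305), Tekt2 (-0.21), Tgfb2 (0.0838) and Tra2a (0.29). In batch 3 alone they were Acvr1b (0.0967), Bmpr2 (-0.0369), Ctsa (0.0462), Id2 (-0.17) and Nfatc2 (0.25), and with no batch term B3gnt7 (0.0639). Smad4 (-0.04 in the fit, not called) was 0.21 in batch 1 alone, 0.0441 without batch 2, -0.0982 to 0.0445 with each library left out in turn (0.0445 without WT replicate 4) and 0.0002 with the length offset. The cause was not tested. Of 407 called genes considered for naming, 286 were called in all 13 fits that leave out 1 library, and 113 without batch 1. Depth limits the genes under 1 CPM, of which 8 of 146 were called higher and 9 lower.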
